A study of Mus musculus with 9 samples.

Results

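The clustered protocadherins of the mouse striatum are described here as the genes whose Ensembl identifier carries a symbol beginning with *Pcdha*, *Pcdhb* or *Pcdhg*. The annotation holds 58 such genes, and 51 of them were in the table of 15464 genes, with 14 alpha, 15 beta and 22 gamma genes. *Pcdhb4*, *Pcdhb6*, *Pcdhb7*, *Pcdhb8*, *Pcdhb11*, *Pcdhb12* and *Pcdhb20* were not analysed here. Of the 51 genes, 50 were tested. *Pcdhb1*, at 2.31 to 12.3 normalized counts, was not, because fewer than 3 of its libraries reached a value of 10. No clustered protocadherin was listed at 0 in any library.

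Clustered protocadherins are single-pass membrane proteins with extracellular cadherin repeats that bind the same isoform on a facing cell. Each alternate isoform starts from its own promoter, and single neurons switch on a small, largely random set of them, while the C-type isoforms at the end of the alpha and gamma clusters are used by most neurons. The combination on the surface lets branches of one neuron recognise and avoid each other, and gamma isoforms also bear on dendrite branching and on the survival of interneurons.

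The striatum of 9 male mice was profiled by mRNA sequencing, with 3 wild-type (WT), 3 heterozygous (HET) and 3 homozygous knock-out (KO) mice of the *Shank3B* line. *Shank3* encodes a scaffold of the excitatory postsynapse, and the line carries a germline allele that targets some of its exons, while the other exons are still transcribed. All mice were on a C57BL/6J background and 10 to 12 weeks old, HET and KO mice had WT littermates as controls, and 1 striatum gave 1 library. The design compares HET with WT and KO with WT, which share the same WT libraries, and KO with HET.

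All 3 clusters lie on the plus strand of chromosome 18 (GRCm38) within 912 kb. The alpha cluster runs from 36930184 to 37187661, the beta cluster from 37264938 to 37524479 and the gamma cluster from 37661793 to 37841873. Each alpha and gamma gene has its own large first exon, which encodes the extracellular and membrane-spanning part, and then joins 3 last exons that all members of its cluster share. These shared exons made up 48.6 to 54.9% of an alpha transcript and 41.7 to 45.9% of a gamma transcript, whereas all 15 beta genes in the table have 1 exon and share none.

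This structure limits what the value of a single gene can say. Of the 31-base words in the annotated transcripts of a gene, a median of 62.2% occurred in another clustered protocadherin for alpha, 46.0% for gamma and 7.9% for beta. Reads from such stretches were divided among the members by the authors' quantification with Salmon, so the values of single alpha and gamma genes are uncertain. The share of such words was highest for *Pcdha7*, at 70.2%, in the alpha cluster and for *Pcdhga4*, at 67.5%, in the gamma cluster, where *Pcdhgc5*, at 27.3%, had the smallest. Both genes at the top are named after their values were seen. The sum over a cluster does not depend on how reads were split among its members, and it is given beside the single genes. Words that also occur in genes outside the clusters made up a median of 6.78% for alpha (up to 41.1% for *Pcdha4*), 0% for beta and 12.9% for gamma (up to 18.9% for *Pcdhgc5*), and how reads were split with those genes, which enters the sums, was not tested. *Pcdhb21* (37513621 to 37518325) overlaps the start of *Pcdhb22* (37517871 to 37524479), so reads from that stretch cannot be told apart.

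The total level of *Shank3* was 7209, 8812 and 6043 normalized counts in WT, 7575, 7098 and 8050 in HET, and 10240, 10800 and 10580 in KO. All KO libraries lay above every WT and HET library, and HET overlapped WT. The totals include the exons that the allele leaves in place, so a loss of the targeted exons cannot be read from them. HET replicate 3 and KO replicate 3 stood apart on the leading principal component (33.6% of variance) from the other 7 libraries. The summed level of 12 medium spiny neuron markers, which define the main striatal cell type, was 97890 to 194200 in WT, 131800 to 171500 in HET and 94480 to 144100 in KO. WT replicate 3 and KO replicate 3 had the lowest sums, and 11 of the 12 markers had a log2 fold change (log2FC) below 0 in KO against WT, with a median of -0.26. Of 8 oligodendrocyte markers, 8 had a log2FC above 0 in HET against WT, with a median of 0.33 and sums of 156300 to 256700 in WT, 219400 to 248600 in HET and 134600 to 240400 in KO. The other 8 marker lists, for striatal interneurons, cortical excitatory neurons, astrocytes, oligodendrocyte precursors, microglia, vessels, choroid plexus and ependyma, had median log2FC values between -0.12 and 0.14 in HET and between -0.23 and 0.22 in KO. The 9 choroid plexus markers summed to 176.6 to 368.5, and *Ttr* was listed at 0 in WT replicate 1 and KO replicate 3 and *Slc4a5* in HET replicate 3. In bulk tissue, fewer cells of a type and less RNA per cell cannot be told apart.

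Per kilobase of transcript, the gamma genes were the most abundant, with a median level of 133 normalized counts per kb over the 9 libraries, against 39.3 for alpha and 43.2 for beta. The median over all tested genes was 236.2, so most clustered protocadherins were below the middle of the expressed genes. *Pcdhgc5*, whose protein binds GABA-A receptors, had the highest level, at 1564 ± 103 per kb in WT, 1429 ± 229 in HET and 1565 ± 285 in KO (SD, n = 3). The next were *Pcdhgc4*, needed for the survival of interneurons, at 863 ± 274, 973 ± 331 and 724 ± 88.8 per kb in WT, HET and KO, and *Pcdhgc3*, which promotes dendrite branching, at 695 ± 68.7, 606 ± 99.6 and 632 ± 160. The order of these C-type genes was the same in each genotype, but the ranges of mean ± SD of *Pcdhgc4* and *Pcdhgc3* overlapped in each.

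In the alpha cluster, *Pcdhac2*, a C-type gene needed for the even spread of serotonergic axons, was the most abundant, at 388 ± 11.6 per kb in WT, 353 ± 19.9 in HET and 377 ± 51.5 in KO (SD, n = 3). The alternate genes *Pcdha12*, at a mean of 140 per kb over the 9 libraries, and *Pcdha5*, at 90.4, followed. *Pcdhac1*, the other C-type gene of this cluster, was at 35.0 per kb, close to the cluster's median. The lowest were *Pcdha1*, at 18.2 per kb, and *Pcdha8*, at 4.98, so that levels in this cluster spanned 74.9-fold.

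The beta genes, which carry their own short cytoplasmic tail in place of the shared one, had the narrowest range among genes that were tested. *Pcdhb17* was at 120 ± 3.62 per kb and *Pcdhb9* at 118 ± 1.68 in WT (SD, n = 3), a difference smaller than the spread between mice. *Pcdhb22* followed at a mean of 70.0 per kb over the 9 libraries, and the lowest were *Pcdhb2*, at 15.6, and *Pcdhb1*, at 2.66. In the gamma cluster the lowest were *Pcdhgb8*, at 10.6 per kb, and *Pcdhgb4*, at 63.6, which left *Pcdhgb8* far under every other gamma gene. The annotation lists *Pcdhgb8* as a polymorphic pseudogene.

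The order of levels was largely shared by the genotypes. As a description across genes, which share libraries and transcript lengths, Spearman's rho between the WT and KO means per kb was 0.938 for 14 alpha genes, 0.961 for 15 beta genes and 0.937 for 22 gamma genes. Between WT and HET it was 0.947, 0.989 and 0.974. The rho between position along the cluster and level was 0.39 for alpha, 0.37 for beta and 0.42 for gamma. Without the C-type genes, which lie last, it was 0.38 for 12 alpha genes and 0.1 for 19 gamma genes.

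**Figure D1:**
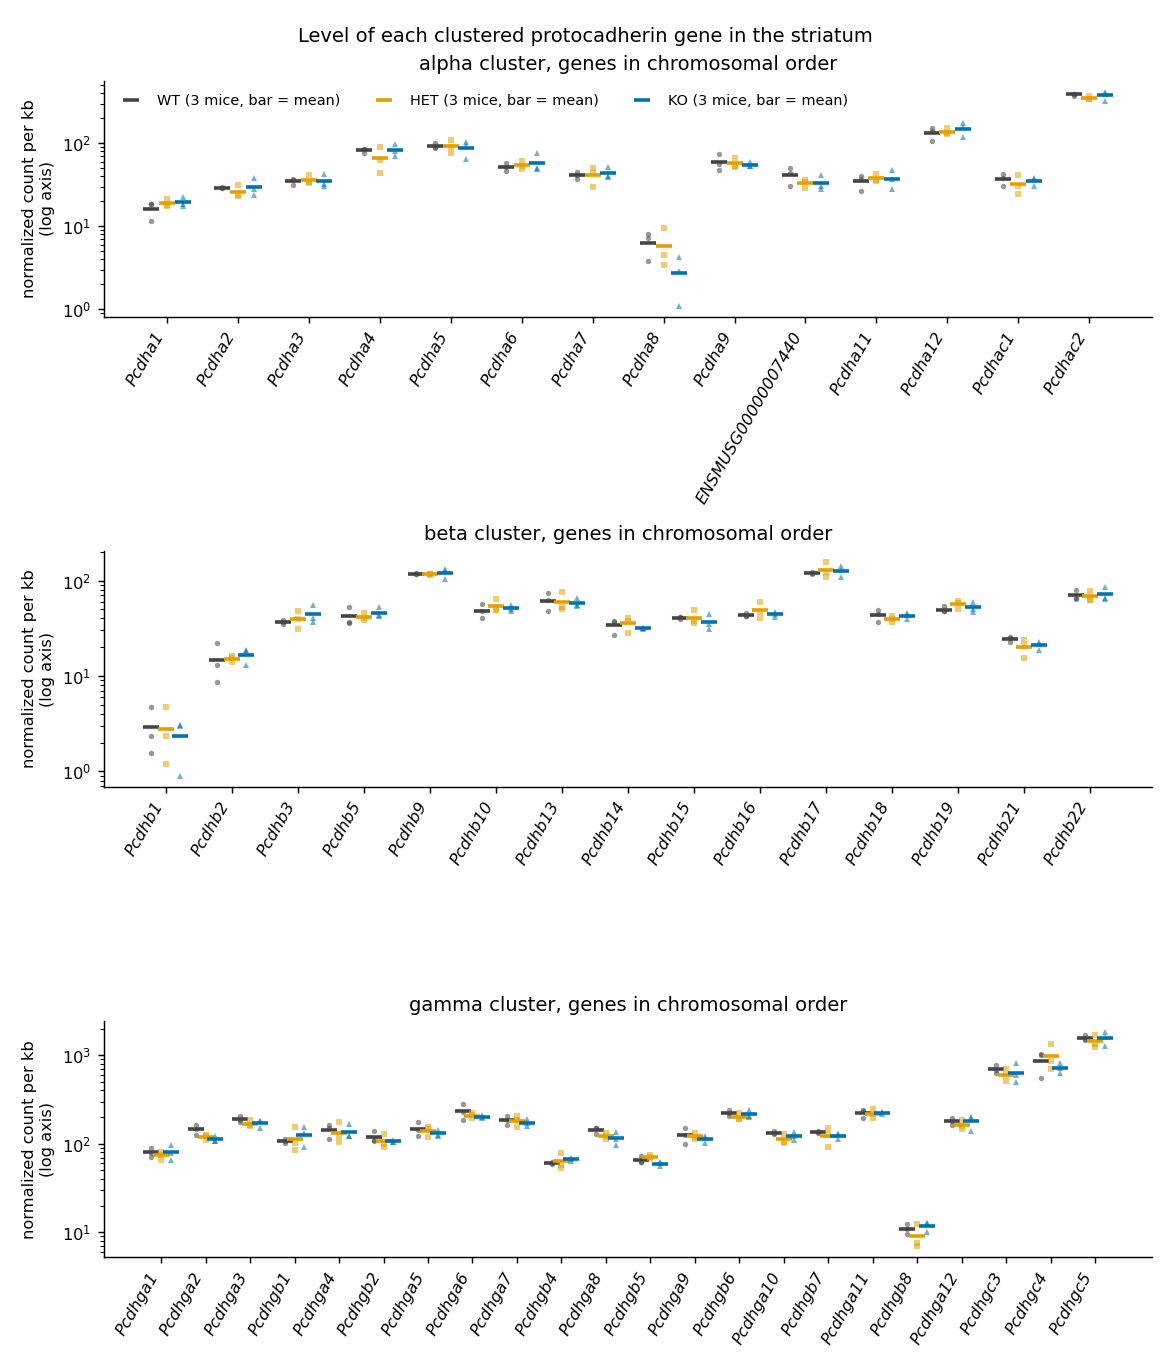
Normalized count per kb of transcript (log axis) of the 51 clustered protocadherin genes, in chromosomal order within the alpha, beta and gamma clusters. Each point is 1 mouse and each bar the mean of 3 mice of a genotype. The 3 C-type gamma genes at the right of the lowest panel lie above all others, from 606 to 1565 per kb in genotype means.

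The summed level of each cluster differed little between genotypes. The alpha sum was 5860, 5771 and 5774 normalized counts in WT, 5197, 5841 and 5402 in HET, and 5109, 5772 and 6483 in KO. The 3 WT mice were close together and lay inside the range of the KO mice, whose sums had a coefficient of variation of 11.9% against 0.871% in WT. The beta sum, over 15 genes, was 3432, 3407 and 3382 in WT, 3577, 3108 and 3823 in HET, and 3166, 3410 and 3843 in KO. Here too the WT values, with a coefficient of variation of 0.734%, lay within the range of both other genotypes, whose coefficients were 10.4% and 9.87%. These spreads come from 3 mice each, and their difference was not tested.

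The gamma sum was 25890, 29490 and 27280 in WT, 23890, 26940 and 27540 in HET, and 23640, 27640 and 26000 in KO. The genotypes overlapped, with the lowest mouse of each of HET and KO under the lowest WT mouse. The gamma genes took 71.6 to 76.3% of the summed count of the 51 clustered protocadherins in the 9 libraries. That sum leaves out the 7 beta genes that were not analysed here. The 3 C-type genes took 50.4 to 61.1% of the gamma sum. *Pcdhac2* alone took 36.7 to 40.2% of the alpha sum.

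On a log2 scale, the HET to WT ratio of the sums was -0.08 ± 0.05 (SE) for alpha, 0.03 ± 0.09 for beta and -0.08 ± 0.08 for gamma. The KO to WT ratio was -0.01 ± 0.10 for alpha, 0.02 ± 0.08 for beta and -0.10 ± 0.09 for gamma, and the KO to HET ratio was 0.07 ± 0.11, -0.01 ± 0.12 and -0.02 ± 0.09. Without HET replicate 3 and KO replicate 3, the 2 libraries that stood apart, the KO to WT ratio was -0.10 for alpha, -0.05 for beta and -0.11 for gamma, and the HET to WT ratio was -0.07, -0.03 and -0.12. When any 1 library was left out, the gamma ratio to WT ranged from -0.12 to -0.01 in HET and from -0.15 to -0.04 in KO, and the alpha ratio in HET from -0.13 to -0.05. The alpha ratio in KO and both beta ratios to WT took either sign.

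Within gamma, the A-type genes summed to 9287, 9865 and 8312 in WT, 8352, 7728 and 9091 in HET, and 8100, 8607 and 8500 in KO. WT replicate 3 lay among the HET and KO mice, and the groups overlapped. The log2 ratio to WT was -0.13 ± 0.10 (SE) in HET and -0.12 ± 0.08 in KO. For the B-type sum it was -0.08 ± 0.13 and -0.02 ± 0.06, and for the C-type sum -0.05 ± 0.16 and -0.10 ± 0.14.

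**Figure D2:**
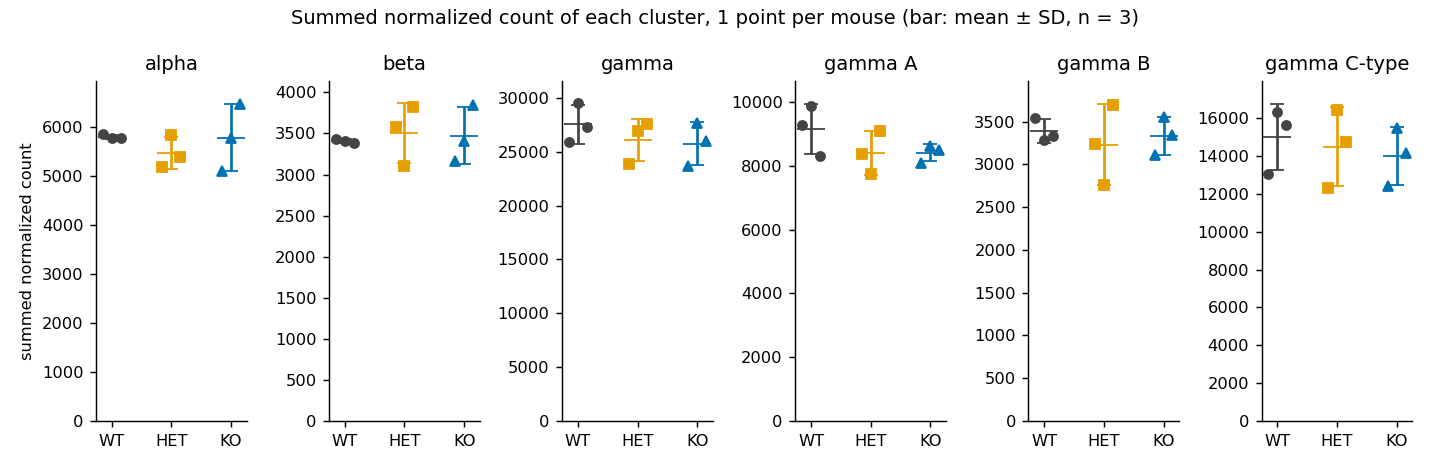
Summed normalized count, on axes that start at 0, of the alpha, beta and gamma clusters and of the gamma A, B and C-type genes, with 1 point per mouse and the mean ± SD of 3 mice. The genotypes overlap in every panel, and the 3 WT mice lie closest together for alpha (5771 to 5860) and beta (3382 to 3432).

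No clustered protocadherin passed the test in HET against WT. With limma and Benjamini-Hochberg adjustment over 14239 genes, no gene of the table had an adjusted p under 0.05 (0% called, smallest adjusted p 0.811), and 1.11% of all genes and 1 of the 50 clustered protocadherins had an unadjusted p under 0.05. That gene was *Pcdhga2*, with the lower mean in HET, as had 0.506% of all genes at that threshold. It was also the single member whose HET and WT libraries did not overlap, which held for 4.41% of all genes, 2.17% with HET lower. Each count, 1 gene or 2% of the members, was near the background for so short a list.

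The signs were not evenly split in the gamma cluster. In HET, 18 of 22 gamma genes had a log2FC below 0, with a median of -0.14, against 9 of 14 alpha genes (median -0.04) and 7 of 14 beta genes (median 0.03). Over all tested genes 50.7% were below 0 and the median was -0.003. Genes of a cluster share reads and cells, so these counts are not independent. All 12 gamma A genes were below 0 in HET, with a median of -0.12 and a range from -0.28 for *Pcdhga2* to -0.02 for *Pcdhga11*. That count was 8 of 12 without WT replicate 2 and 7 of 12 without HET replicate 2, and the median without WT replicate 2 was -0.02. For all 22 gamma genes the count was 14 (median -0.05) without WT replicate 2 and 13 (median -0.09) without HET replicate 2. Of the 7 gamma B genes, 4 were below 0. Among the marker lists in HET, 6 of 8 cortical excitatory neuron markers were below 0 (median -0.12, sums of 41570 to 53560 in WT and 36210 to 50390 in HET), while 8 of 8 oligodendrocyte markers and 7 of 7 tested vessel markers (median 0.14, sums of 8179 to 8850 in WT and 7967 to 10340 in HET) were above 0. The part of these markers in the gamma values was not tested.

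In HET the farthest alpha genes from 0 were *Pcdha4* (log2FC -0.40 ± 0.23 SE), ENSMUSG00000007440 (-0.30 ± 0.21) and *Pcdha1* (0.26 ± 0.21). The identifier ENSMUSG00000007440 shares the symbol *Pcdha11* with a second gene in GENCODE, and is therefore named by its number. The farthest beta genes were *Pcdhb21* (-0.31 ± 0.19), *Pcdhb19* (0.18 ± 0.13) and *Pcdhb10* (0.17 ± 0.18), and the farthest gamma genes besides *Pcdhga2* were *Pcdhgb8* (-0.32 ± 0.26) and *Pcdhga10* (-0.26 ± 0.12). None of these 8 genes had an unadjusted p under 0.05 or groups that did not overlap.

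No member passed the test in KO against WT either, where limma with Benjamini-Hochberg adjustment again called 0% of the table (smallest adjusted p 0.912). An unadjusted p under 0.05 was found for 0.822% of all genes and for 3 of the 50 members, *Pcdhga2*, *Pcdhga8* and *Pcdha8*, each with the lower mean in KO, as were 0.435% of all genes. The 3 genes are 6% of the members, above the background, but the count was 1 without WT replicate 1 and 1 without KO replicate 3. The KO and WT libraries did not overlap for 4.51% of all genes and for 3 members. *Pcdhga2* and *Pcdhgb5* were lower in KO, beside 2.5% of all genes, and *Pcdhgb4* was higher, beside 2.01%, so these counts were near the background.

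In KO, 17 of 22 gamma genes had a log2FC below 0 (median -0.12), against 7 of 14 alpha genes (median -0.0004), 5 of 14 beta genes (median 0.03) and 48.4% of all tested genes (median 0.005). Without KO replicate 3 the counts were 16 of 22 for gamma (median -0.10), 11 of 14 for alpha (median -0.10) and 9 of 14 for beta (median -0.03). The contrast between gamma and alpha in KO thus rested on that library, and the contrast between gamma and beta was smaller without it. The gamma count was 14 without WT replicate 2 (median -0.04) and 14 without KO replicate 1 (median -0.08). TMM scaling and quantile normalization left the gamma counts at 18 in HET and 17 in KO. Of the 12 gamma A genes 10 were below 0, with a median of -0.12. Without WT replicate 2 the count was 8 of 12, with a median of -0.02, and without KO replicate 1 it was 8 of 12, with a median of -0.08. Without WT replicate 3 and KO replicate 3, the libraries with the lowest medium spiny neuron markers, 15 of 22 gamma genes were below 0 with a median of -0.12, 11 of 12 gamma A genes with a median of -0.22, 11 of 14 alpha genes with a median of -0.12 and 11 of 14 beta genes with a median of -0.02. The part of the medium spiny neuron markers in these values was not tested beyond leaving out those libraries.

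Besides *Pcdha8*, the farthest alpha genes from 0 in KO were ENSMUSG00000007440 (log2FC -0.30 ± 0.21 SE) and *Pcdha1* (0.30 ± 0.21). In the beta cluster they were *Pcdhb2* (0.27 ± 0.32), *Pcdhb3* (0.23 ± 0.21) and *Pcdhb21* (-0.22 ± 0.19), and in the gamma cluster, after *Pcdhga2* and *Pcdhga8*, *Pcdhgb1* (0.22 ± 0.24). Each of these values was less than 1.5 times its standard error, and the libraries of KO and WT overlapped for all of them.

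In KO against HET, limma with Benjamini-Hochberg adjustment called 0% of genes, and every adjusted p was 1. An unadjusted p under 0.05 was found for 1.31% of all genes and for 1 member, *Pcdhgb5*, with the lower mean in KO, as in 0.562% of all genes. It was also the single member without overlap, beside 4.44% of all genes and 2.19% with KO lower. Of the members, 5 of 14 alpha, 7 of 14 beta and 8 of 22 gamma genes had a log2FC below 0, beside 50.4% of all genes.

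**Figure D3:**
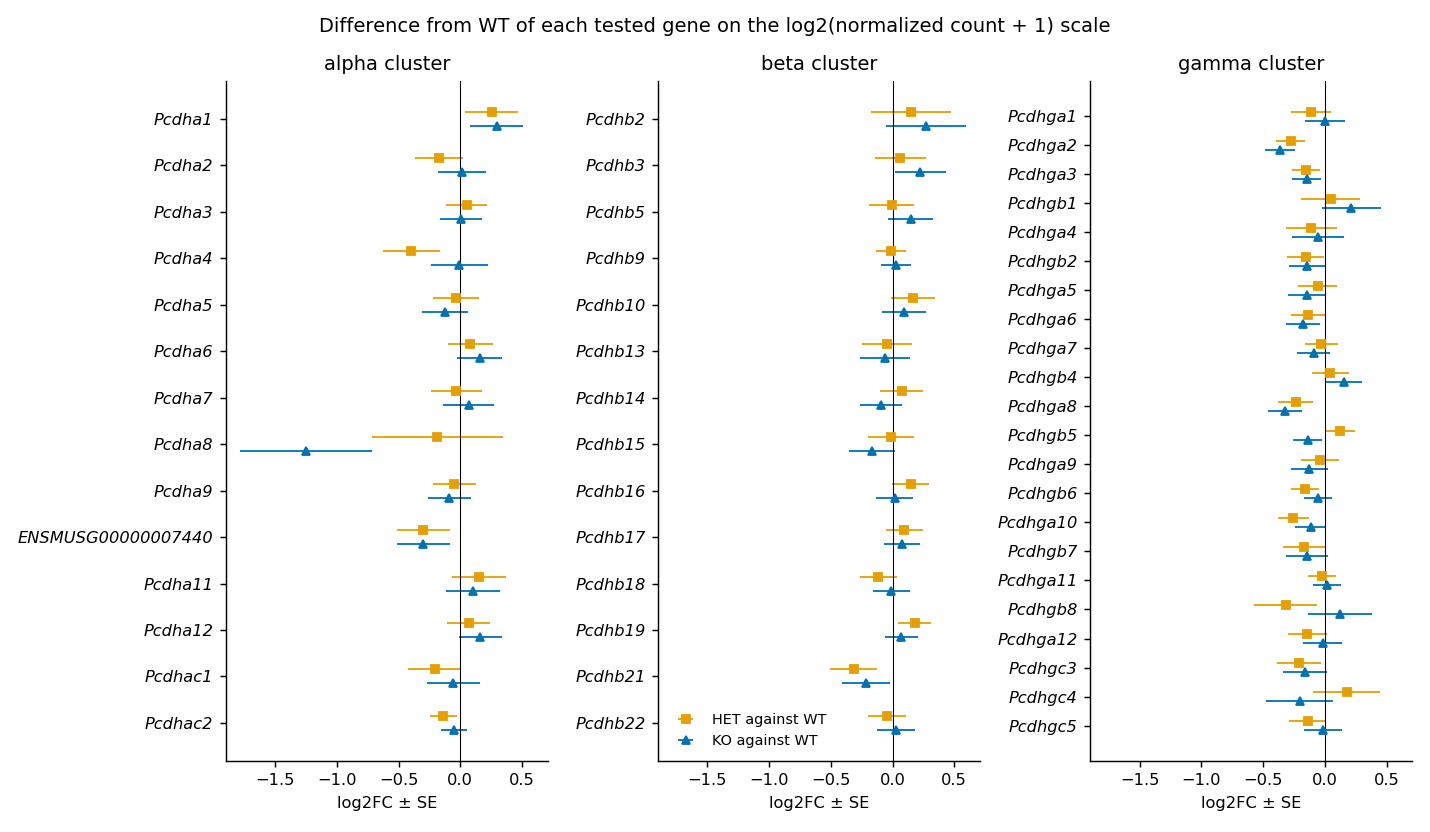
Difference from WT (log2FC ± SE on the log2 of normalized count + 1, from limma) of the 50 tested genes, for HET (squares) and KO (triangles), in chromosomal order from top to bottom. Most gamma values lie left of 0, the alpha and beta values lie on both sides, and *Pcdha8* in KO, at -1.25 ± 0.53, is the farthest from 0.

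*Pcdhga2*, an alternate gene of the gamma A group, was listed by the study as down-regulated in KO, from these same libraries. The study used DESeq2 with p-values corrected by an estimated null distribution, whereas limma was used here. The values of *Pcdhga2* here are therefore a description and no separate evidence. Its level was 685.2, 593.4 and 762.4 normalized counts in WT, 567.8, 522.4 and 585.7 in HET, and 498.5, 574.6 and 506.9 in KO. Every HET and KO mouse lay under every WT mouse, while HET and KO overlapped. On the log2 scale the difference was -0.28 ± 0.12 (SE) in HET and -0.36 ± 0.12 in KO, with a limma adjusted p (Benjamini-Hochberg) of 0.999 for both and an exact permutation p of 0.1, the smallest that 3 mice against 3 allow. Leaving out any 1 library kept the difference between -0.37 and -0.19 in HET and between -0.46 and -0.28 in KO. As a share of the gamma sum, *Pcdhga2* was 2.65, 2.01 and 2.79% in WT, 2.38, 1.94 and 2.13% in HET and 2.11, 2.08 and 1.95% in KO. On this scale the groups overlapped, through WT replicate 2, which had the largest gamma sum. A share of 47.0% of the sequence words of *Pcdhga2* occurs in other members.

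*Pcdhga8*, also of the gamma A group, was at 714.7, 718.5 and 609.7 normalized counts in WT, 621.7, 530.1 and 580.8 in HET, and 648.4, 535.7 and 459.7 in KO. The highest KO mouse lay above the lowest WT mouse, so that KO and WT overlapped. The log2FC was -0.32 ± 0.14 (SE) in KO (limma adjusted p 0.999, Benjamini-Hochberg) and -0.24 ± 0.14 in HET. Without KO replicate 3 the KO difference was -0.20.

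*Pcdhgb5* and *Pcdhgb4*, alternate genes of the gamma B group, had their KO libraries on opposite sides of the WT libraries. *Pcdhgb5* was at 335.8, 289.8 and 292.1 normalized counts in WT, 329.1, 319.6 and 351.7 in HET, and 288.4, 284.6 and 258.9 in KO, so that all KO mice lay under all others and HET overlapped WT. The log2FC was -0.27 ± 0.12 (SE) against HET and -0.14 ± 0.12 against WT, and limma adjusted p values (Benjamini-Hochberg) were 1 and 0.999. *Pcdhgb4* was at 284.0, 287.1 and 275.0 in WT, 267.2, 251.1 and 366.9 in HET, and 299.2, 322.9 and 318.1 in KO. All KO mice were above all WT mice, but the log2FC of 0.15 ± 0.15 was about the size of its error. As a share of the gamma sum *Pcdhgb4* was 0.974 to 1.10% in WT and 1.17 to 1.27% in KO, without overlap, while for *Pcdhgb5* the shares overlapped. The share uses the same counts and is no separate evidence. As a share of its own cluster, *Pcdha1* was also higher in KO than in WT without overlap. In HET against WT the same held for *Pcdhb19*, higher, and *Pcdhga10*, lower.

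*Pcdha8*, the lowest of the alpha genes, was at 42.8, 20.3 and 38.2 normalized counts in WT, 51.5, 18.1 and 23.8 in HET, and 15.6, 22.8 and 5.86 in KO. KO replicate 2 lay above WT replicate 2, so the groups overlapped. The log2FC in KO was -1.25 ± 0.53 (SE), with a limma adjusted p of 0.999 (Benjamini-Hochberg) and an exact permutation p of 0.2. Without KO replicate 3 it was -0.74. At this level, with 67.3% of its sequence words in other members, the residual SD of *Pcdha8* was 0.76 on the log2 scale, the largest of all tested members.

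**Figure D4:**
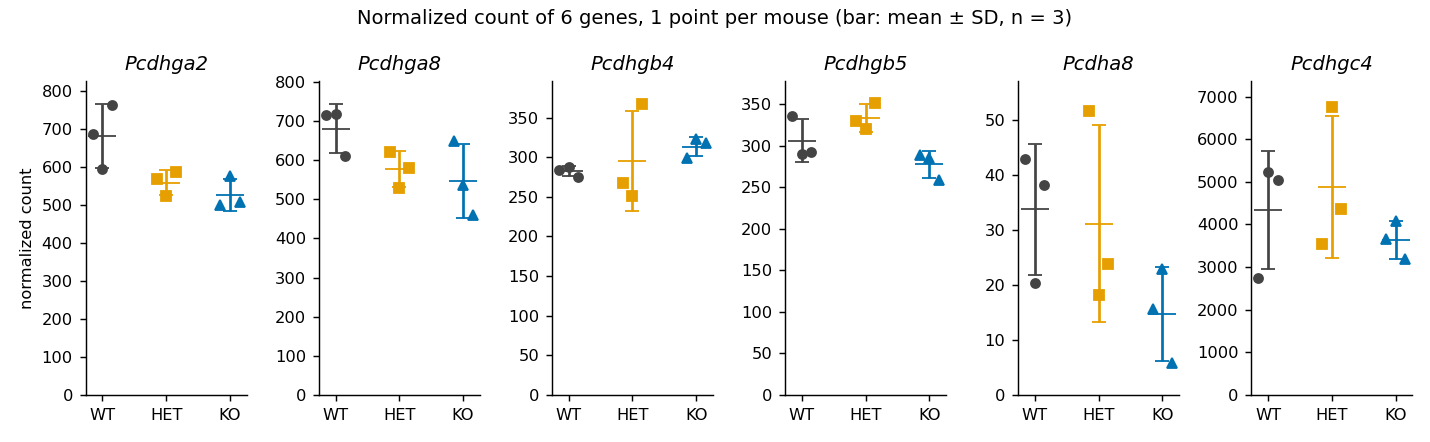
Normalized count, on axes that start at 0, of *Pcdhga2*, *Pcdhga8*, *Pcdhgb4*, *Pcdhgb5*, *Pcdha8* and *Pcdhgc4*, with 1 point per mouse and the mean ± SD of 3 mice. The HET and KO points of *Pcdhga2* all lie under its lowest WT point of 593.4, and *Pcdhgc4* ranges from 2750 to 6747 across the mice.

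The C-type genes, which most neurons use, showed no shift that stood out from their spread. *Pcdhgc4* was at 2750, 5221 and 5042 normalized counts in WT, 3547, 6747 and 4364 in HET, and 3647, 4080 and 3187 in KO. Its lowest and highest libraries were WT replicate 1 and HET replicate 2. The log2FC was 0.18 ± 0.27 (SE) in HET and -0.20 ± 0.27 in KO. *Pcdhgc5* was at 7321, 7945 and 6978 in WT, 5935, 6390 and 8003 in HET, and 5980, 7621 and 8661 in KO, with overlap in every comparison. *Pcdhgc3* was at 2988, 3173 and 3615 in WT, 2817, 3316 and 2384 in HET, and 2798, 3783 and 2308 in KO, where HET replicate 3 and KO replicate 3 were the lowest of the 9 libraries.

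For *Pcdhgc5* the log2FC was -0.14 ± 0.15 (SE) in HET and -0.01 ± 0.15 in KO, and for *Pcdhgc3* it was -0.21 ± 0.18 and -0.16 ± 0.18. *Pcdhac2* was at 2321, 2204 and 2323 normalized counts in WT, 2032, 2211 and 1991 in HET, and 1877, 2323 and 2455 in KO. Its HET mice were all but 1 under the WT mice, and the log2FC was -0.14 ± 0.11 in HET and -0.05 ± 0.11 in KO. *Pcdhac1* was at 205.2, 164.6 and 232.0 in WT, 167.5, 226.0 and 133.8 in HET, and 202.4, 208.8 and 165.3 in KO, and its groups overlapped throughout.

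Members of a cluster often deviated together within a library. KO replicate 3 was the highest of the 9 libraries for 8 of 14 alpha genes, and 11 of 14 lay above their own mean there. In HET replicate 2, 0 of 14 beta genes lay above their own mean, and 11 of 22 gamma genes had their lowest value. In WT replicate 2, 12 of 12 gamma A genes lay above their own mean, with a median deviation of 0.19 on the log2 scale, beside 0.001 for all tested genes. HET replicate 3 was the highest library for 4 of 14 beta and 6 of 22 gamma genes. How often all tested genes had their highest or lowest value in a given library was not counted. HET replicate 3 and KO replicate 3 stood apart on the leading principal component, so such counts cannot be read as particular to the clusters. The median residual SD on the log2 scale was 0.26 for alpha, 0.20 for beta and 0.20 for gamma genes, beside 0.19 for all tested genes.

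**Figure D5:**
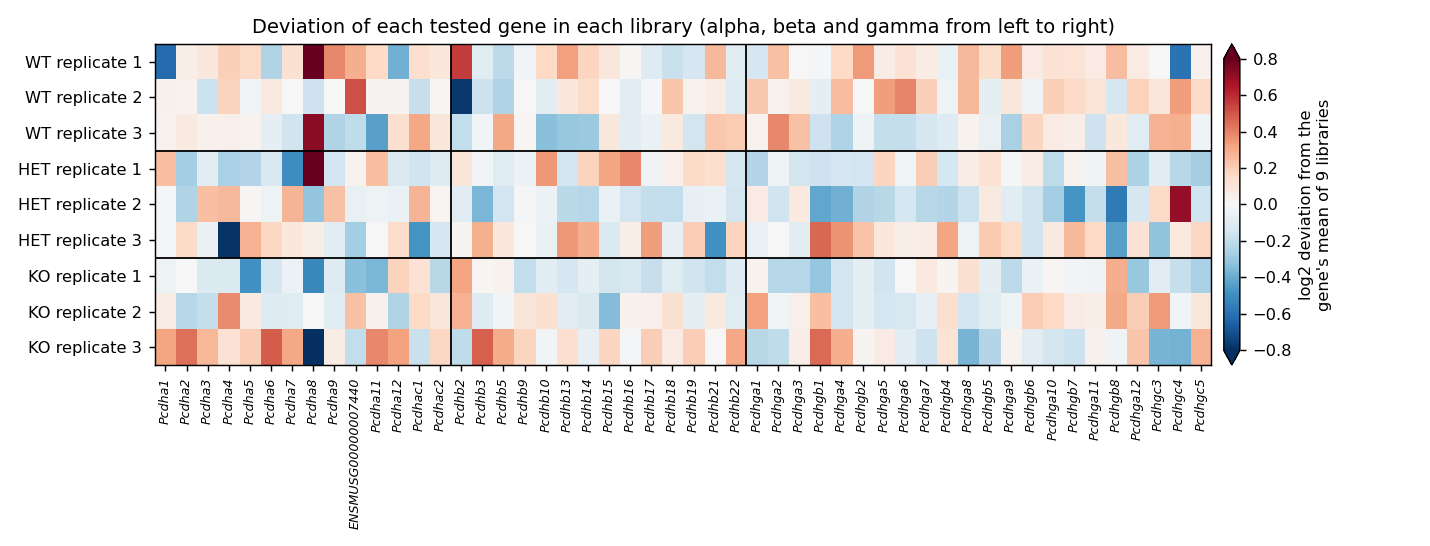
Deviation of each of the 50 tested genes in each of the 9 libraries from the mean of that gene over all libraries, as log2 of normalized count + 1, with red above and blue below the mean. Rows that keep mostly one colour across a cluster, such as HET replicate 2 with 0 of 14 beta and 5 of 22 gamma genes above their mean, mark libraries in which members deviated together.

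The genes around the clusters in their pathway were compared in the same fit. Of 24 regulators of the clusters, including CTCF, the cohesin subunits and loaders that bring enhancers to the promoters, and silencers such as *Smchd1* and *Setdb1*, 0 had an unadjusted p under 0.05 in any of the 3 comparisons by limma. The median log2FC was 0.01 in HET and -0.01 in KO. Groups did not overlap for *Stag1* and *Dnmt1*, both lower in HET than in WT, beside 2.17% of all genes. The same held for *Mau2*, higher in KO than in WT, beside 2.01%. Between KO and HET it held for *Stag2*, lower in KO, and *Dnmt1*, higher in KO, beside 4.44% of all genes in either direction. These genes were named after their values were seen. The farthest from 0 were *Dnmt3b*, a de novo DNA methyltransferase, at 0.12 ± 0.44 (SE) in HET and 0.47 ± 0.44 in KO, *Tet1*, which oxidises methylcytosine, at -0.26 ± 0.20 and -0.05 ± 0.20, and *Wiz*, a zinc finger protein, at -0.24 ± 0.16 and 0.03 ± 0.16.

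Of 12 protocadherins outside the clusters, 0 had an unadjusted p under 0.05 in any comparison, with a median log2FC of -0.06 in HET and 0.07 in KO. *Pcdh12*, which lies on chromosome 18 as well and is expressed in vessels, was at 6.53, 8.40 and 12.2 normalized counts in WT and 13.8, 21.5 and 13.2 in HET, with a log2FC of 0.78 ± 0.37 (SE). All its HET values were above the WT values, at a level near the filter, as held for 319 of the 14239 tested genes. In KO its log2FC was 0.36 ± 0.37, and KO and WT overlapped. *Pcdh18* had a log2FC of -0.32 ± 0.22 in HET and 0.11 ± 0.22 in KO, and *Pcdh8*, -0.31 ± 0.22 and 0.07 ± 0.22.

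Of 24 partners of the clustered protocadherins, among them the kinases that their tails hold back, the WAVE complex, the proteases that cut them and neuroligins, 0 had an unadjusted p under 0.05 in any comparison by limma. The median log2FC was -0.04 in HET and -0.01 in KO. The farthest from 0 were *Ret*, a receptor tyrosine kinase, at 0.16 ± 0.24 (SE) in HET and 0.39 ± 0.24 in KO, *Psen2*, a subunit of gamma-secretase, at 0.27 ± 0.23 and 0.26 ± 0.23, and *Wasf2*, of the WAVE complex, at 0.25 ± 0.21 and 0.05 ± 0.21. The high values of *Wasf2* in HET and of *Psen2* in KO rested on replicate 3, at 1423 and 864.9 normalized counts. Without that replicate the log2FC was -0.04 for *Wasf2* and -0.01 for *Psen2*. All KO libraries lay under all WT libraries for 3 of the 24 partners, named after their values were seen, beside 2.5% of all genes. They were *Abi2* (log2FC -0.19 ± 0.10 SE) and *Brk1* (-0.24 ± 0.19) of the WAVE complex, and *Axin1* (-0.16 ± 0.09), a scaffold of Wnt signalling. The value of *Brk1* rested largely on KO replicate 3, with 4118, 4180 and 2918 normalized counts in KO and 4402, 4308 and 4358 in WT.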

How the data were processed

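The authors estimated transcript abundance with Salmon 0.9.1 (GRCm38, GC bias correction), collapsed transcripts to genes with tximport, and scaled libraries by DESeq2 1.19.11 size factors in R 3.6.0. The deposited signal is this normalized count per gene. Values are not whole and whole reads were not recovered, so no count test was run, the depth in reads is unknown and no counting interval is given. Normalized counts summed to between 30830020 and 33790296 per library, and replicates were not pooled. Libraries came from a stranded mRNA kit, and whether strand was used in counting is not given in the sources used here. Samples were assigned by label, and 0 columns were of no sample.

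Values were taken as log2(normalized count + 1). A gene was kept where 3 or more libraries reached 10, which left 14239 of 15464. A single limma 3.58.1 model (R 4.3.3) held all 9 libraries, with a variance trend, no covariate, two-sided tests and Benjamini-Hochberg adjustment at 0.05. The fit was tested on simulated data. p-values measure the spread between 3 mice per genotype. Symbols, coordinates and lengths come from GENCODE M21, and levels per kb use the longest transcript annotated as protein-coding or polymorphic pseudogene. Shared sequence was measured as 31-base words. Figures were drawn with matplotlib 3.10.9.

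The members, the lists of regulators, other protocadherins, partners and cell type markers, and the tests were chosen with earlier results of these data known. Named members are the 3 highest and 2 lowest per cluster, all C-type genes, those with an unadjusted p under 0.05 or with HET or KO libraries outside the WT range, the 3 largest fold changes per cluster in HET and KO against WT, *Pcdhga2*, and genes under the filter or at 0. Named other genes are *Shank3*, up to 3 per list of regulators, other protocadherins and partners with the largest change, and markers listed at 0. Regulators and partners whose groups did not overlap are also named, a choice made after their values were seen. Replicate numbers are shared by the labels of all genotypes. Deviations of same-numbered libraries correlated at 0.52, 0.28 and 0.51 between HET and KO. They correlated at 0.32, -0.014 and 0.0054 between WT and HET, and at 0.24, -0.22 and 0.024 between WT and KO. No litter or day is stated for the numbers. The main fit held no pairing, and the replicate block alternative used the numbers of all 9 libraries. Alternatives changed the pseudocount, the filter, the scaling, the variance model, the null distribution, the replicate block and the libraries.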

Additional observations from a re-analysis of the deposited data

How the results depend on the processing

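The count of genes with an adjusted p under 0.05 was 0 in each comparison under all alternatives except an empirical null, with which it was 1 in HET against WT, 2 in KO against WT and 2 in KO against HET. The count of clustered protocadherins with an unadjusted p under 0.05, at 1, 3 and 1 in the same order, was 2 in HET against WT and 4 in KO against HET with the empirical null, 0 in both of these with only the genotypes compared in the fit, and 0 in KO against HET with no filter. Without HET replicate 3 and KO replicate 3 it was 3 in HET against WT and 1 in KO against WT. Without WT replicate 3 and KO replicate 3, an alternative chosen after seeing the data, it was 3, 1 and 0. Leaving out 1 library gave 0 to 2, 1 to 3 and 0 to 2. In HET against WT it was 0 without WT replicate 1 or KO replicate 1 and 2 without WT replicate 3 or HET replicate 3. In KO against WT it was 1 without WT replicate 1 or KO replicate 3, and in KO against HET it was 0 without WT replicate 2 or 3 or KO replicate 1 or 3 and 2 without HET replicate 2. The cause of these moves was not tested.

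With 1 library left out, the log2 ratio of the alpha sum ranged from -0.13 to -0.05 in HET against WT, from -0.10 to 0.08 in KO against WT and from -0.01 to 0.16 in KO against HET. The ranges were -0.03 to 0.12, -0.05 to 0.09 and -0.10 to 0.05 for the beta sum, and -0.12 to -0.01, -0.15 to -0.04 and -0.08 to 0.04 for the gamma sum. No cluster sum moved by more than the spread between mice under any alternative. With the replicate block the member counts were 1, 3 and 1 and the adjusted counts 0, and the block changed no other call. Of 108 log2 fold changes followed for single genes, 64 were smaller than their standard error. No direction was read from these singly, though those of members enter the counts of signs. Among the others the sign turned only for *Wasf2* in HET (-0.042 without HET replicate 3 and KO replicate 3, and -0.042 to 0.47 with 1 library left out) and *Psen2* in KO (-0.01 without HET replicate 3 and KO replicate 3, -0.012 without WT replicate 3 and KO replicate 3, and -0.01 to 0.46 with 1 library left out). The 3 mice per genotype and the reads that members share limit the precision of single alpha and gamma genes, and a missed threshold does not show equal levels.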
